A study of Mus musculus with 21 samples.

Results

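The levels of 10 immediate early genes were followed in mouse HSCs by RNA sequencing: the AP-1 subunit genes Fos, Fosb, Jun, Junb and Jund, the EGR genes Egr1, Egr2 and Egr3, and the early regulators Ier2 and Atf3. They were picked by gene symbol, not by a measured value, though with earlier results of these data known. All 10 had a row among the 21000 genes of the deposited count table. HSCs of wild-type C57BL/6 mice had been sequenced in 21 libraries, 3 in each of 7 groups, with 3000 to 3500 cells sorted per library. Mice aged 10 weeks received PBS once (PBS-1 d6) or 3 times (PBS-3 d6), or 5-fluorouracil (5-FU), a pyrimidine analogue that kills cycling cells, at 150 mg/kg by intraperitoneal injection once (5FU-1) or 3 times at intervals of 21 days (5FU-3). Cells were taken at day 6 (d6), which is 5 days after the last injection, or, after 5-FU alone, also at day 21 (d21), which is 20 days after it. The old group came from mice aged 2 years, is labelled fresh and has no injection listed. No PBS group was taken at d21, and all groups carried the same wild-type genotype. According to the methods, the gate was widened to c-Kit-dim cells and the Mac-1 antibody was left out early after 5-FU (d6), with the wider gate at no other time, cells were enriched with c-Kit beads, and both sexes were used. The gate thus differed between 5-FU at d6 and all other groups, in the comparisons with PBS and in those of d21 with d6, where gate and group cannot be told apart. Likewise, fewer cells of a type cannot be told apart from less RNA per cell. The labels number 3 libraries per group and do not tie each to an animal, so p-values measure the spread between these libraries.

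Immediate early genes are transcribed within minutes of a stimulus by factors that the cell already holds, such as SRF, the ternary complex factors and CREB, and many of their short-lived mRNAs carry AU-rich elements that direct decay. FOS and JUN family proteins pair through leucine zippers into AP-1 dimers, whereas EGR proteins bind GC-rich sites through zinc fingers. In HSCs, EGR1 is known to hold cells quiescent and in the niche, and JUNB is known to limit stem cell proliferation and myeloid output. Handling of cells before lysis is also known to induce this class of genes.

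The sequences just upstream of 3 AP-1 genes are shown: over both schedules at d6, Fos was called higher, Junb lower and Fosb neither. They are the 250 bases before each transcription start, 5′ to 3′ on the gene's strand, from RefSeq on GRCm38.p6, with capitals marking TGACG in all 3 genes, GCGNGGGCG (the EGR consensus) in Fosb and CCAAT in Junb, on either strand.
Fos, chr12:85473640-85473889, plus strand: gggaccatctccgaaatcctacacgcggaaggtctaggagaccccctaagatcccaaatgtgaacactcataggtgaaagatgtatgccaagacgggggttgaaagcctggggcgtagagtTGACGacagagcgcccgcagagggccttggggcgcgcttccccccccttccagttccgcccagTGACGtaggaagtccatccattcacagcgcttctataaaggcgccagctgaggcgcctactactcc
Fosb, chr7:19310046-19310295, minus strand: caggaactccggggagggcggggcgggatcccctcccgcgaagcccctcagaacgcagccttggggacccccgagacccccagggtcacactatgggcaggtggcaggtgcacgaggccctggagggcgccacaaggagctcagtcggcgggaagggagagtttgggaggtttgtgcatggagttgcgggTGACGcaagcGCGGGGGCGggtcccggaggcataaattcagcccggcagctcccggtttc
Junb, chr8:84978749-84978998, minus strand: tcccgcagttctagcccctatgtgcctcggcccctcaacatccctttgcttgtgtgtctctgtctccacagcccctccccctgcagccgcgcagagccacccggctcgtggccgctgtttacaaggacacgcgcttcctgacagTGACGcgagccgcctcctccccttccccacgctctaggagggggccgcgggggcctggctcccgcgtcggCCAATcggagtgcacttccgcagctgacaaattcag
Counted from the start, TGACG, the core of the CRE bound by CREB and ATF proteins, lies at -66 to -62 and -129 to -125 in Fos, at -60 to -56 in Fosb and at -106 to -102 in Junb. GCGNGGGCG lies at -50 to -42 in Fosb, and CCAAT at -36 to -32 in Junb.

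RefSeq promoter windows, from 250 bases before to 50 after a start, were held for 7 of the 10 genes in 11 windows. Entries were missing for Egr1, Egr3 and Ier2. Of 32851 windows of the same length over all genes, 20.8% held TGACG, 37.4% held CCAAT and 5.55% held GCGNGGGCG, searched on both strands. The CArG box of SRF stood in 1.63% of all windows and, among these genes, in 4 of the 5 windows of Egr2. Those of Egr2 that start at 67537619, 67537620 and 67537680 on chr10 overlap and hold the same site, so this count repeats it. TGANTCA, the AP-1 consensus (7.81% of windows), TGACGTCA, the full CRE (1.79%), and TTCNNNGAA (8.3%) were not found in any of the 11 windows. These letters in these windows say nothing of binding. Bases further than 250 before a start were not searched, so a motif not found here, such as the CArG box in Fos, may lie further upstream.

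Library totals ran from 22184885 to 38649033 counts. A signal of 3 counts, taken as the floor, corresponded to 0.0845 to 0.129 CPM (library-scaled counts after TMM normalization), and this floor covers counting error only. The HSC label was checked with 12 markers, all of them above the floor in every library. Their summed level was lower at d6 after 5-FU, at 3405 to 3551 CPM (5FU-1) and 2909 to 3008 CPM (5FU-3), than in the PBS groups, at 4238 to 4744 and 4057 to 4428 CPM. Markers of other blood cells were mixed. At most 3 counts in every library were held by 1 of 6 B cell markers (Pax5), 2 of 6 T and NK cell markers (Cd3e and Cd8a) and 4 of 6 mast cell and basophil markers (Prss34, Mcpt8, Cma1 and Tpsb2). Other markers of these lists were detected, with Cd79b at 29.0 to 56.6 CPM, Nkg7 at 7.06 to 20.4 CPM and Klrb1c at 2.92 to 35.1 CPM over the 21 libraries, and with Ebf1 reaching 9.10 CPM and Cpa3 5.65 CPM. The column names of the 6 PBS-1 and 5FU-1 d6 libraries carry a suffix that the other 15 lack, whose meaning is not stated. PBS and 5-FU do not differ in it within a schedule at d6. In any contrast of these 6 libraries with the others, among them d21 with d6 after 1 administration, it cannot be told apart from the group.

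Jund, a constitutively expressed JUN family gene, was the most abundant of the 10 genes per length and Atf3 the least. On the scale of CPM per kilobase of the longest transcript, the means over 21 libraries were 46.6 for Jund, 23.4 for Ier2, 21.4 for Junb, 14.3 for Jun and 5.46 for Egr1. Fos followed at 2.95 CPM per kilobase, before Fosb at 0.484, Egr2 at 0.327, Egr3 at 0.0669 and Atf3 at 0.0223. Library values of Ier2 (20.0 to 27.0) and Junb (11.7 to 29.6) overlapped, as did those of Junb and Jun (6.51 to 19.7), so these neighbours in the order did not separate. Jund, from 30.3 to 71.7 CPM per kilobase, overlapped none of the other 9 with the GENCODE length of 1668 bases. That model starts at 70698949 on chr8, downstream of the RefSeq promoter window of Jund (70697489 to 70697788). A longer transcript would lower the value, so the separation depends on the gene model. On plain CPM, Jund (lowest library 50.5) overlapped Jun (highest 63.0). Counts do not keep the strand, however, and 52.6% of its exonic bases are shared with the antisense gene Gm11175. The shared share was 7.28% for Jun (with Junos) and 7.52% for Junb (with Prdx2), and reads of such partners cannot be told apart.

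**Figure D1:**
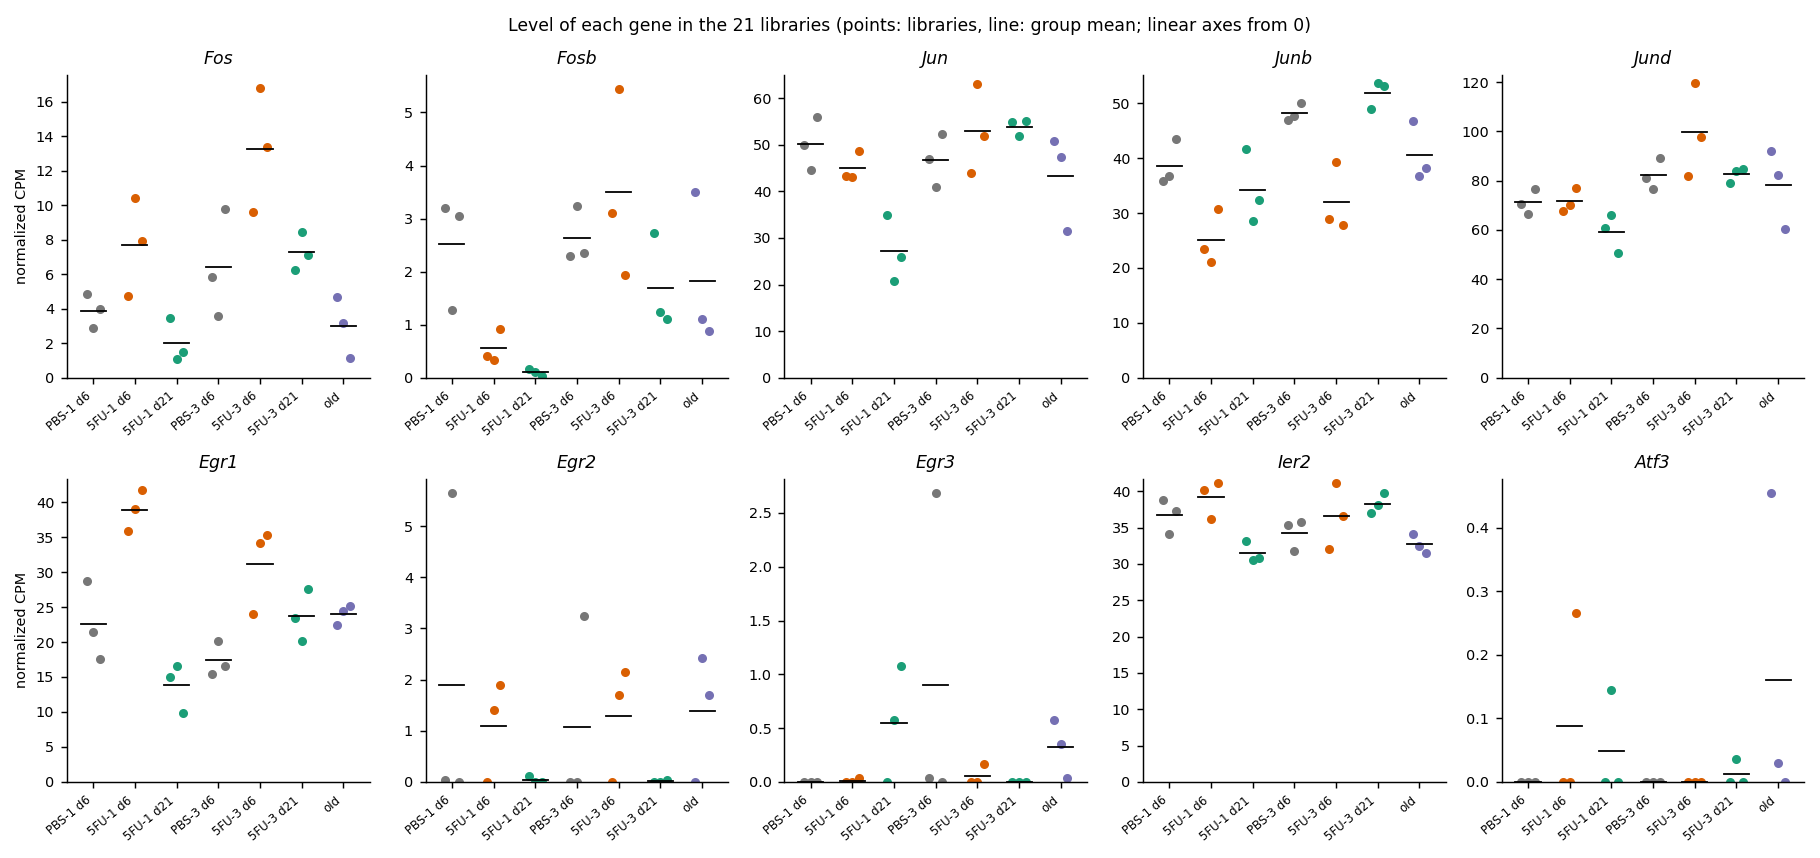
Level of each of the 10 genes (vertical axis, CPM after TMM normalization, linear and from 0) in the 7 groups (horizontal axis), with 1 point per library and a line at the mean of the 3 libraries of a group. Egr1 was higher and Junb lower in both 5-FU groups at d6 than in the matching PBS groups, and Fosb was near the floor in 5FU-1 d21. Egr2, Egr3 and Atf3 were at or near 0 in most libraries, with other libraries above. Egr2 stood above the floor in 2 of the 3 libraries of 5FU-1 d6, 5FU-3 d6 and the old group.

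Across all 7 groups, 7 of the 9 genes that passed the filter on low counts differed (quasi-likelihood F test of edgeR, adjusted p from 0.000156 for Egr1 to 0.0428 for Ier2), against 37.6% of the 13571 genes tested. Fos had adjusted p = 0.00292, Fosb 0.000889, Jun 0.00654, Junb 0.000918 and Jund 0.00992. Egr2 (adjusted p = 0.348) and Egr3 (0.0846) did not pass, and Atf3 was not tested. Spread between groups on the log2(CPM + 1) scale was in the 94.7th percentile for Fos and the 94.6th for Egr1 among genes of similar level (within 2-fold), and in the 34th for Ier2. The group with the lowest mean coincided for 6 of them: Fos, Fosb, Jun, Jund, Egr1 and Ier2 all reached it in 5FU-1 d21. Fosb had only 1 to 4 counts per library there. The share of all genes with their lowest mean in that group was not computed, so this count is description only.

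Comparing 5-FU with PBS at d6 asks what differs in HSCs early after the drug. With both schedules in 1 fit, Fos and Egr1 were higher and Junb was lower after 5-FU, and Fosb, Jun, Jund, Egr2 and Ier2 did not pass the test. Thus 2 of 8 tested genes were higher and 1 lower, against 17.8% of all 13227 tested genes higher and 16.7% lower. Shares of that size among 8 genes are not a result about these genes as a group. The members went apart in direction, and the account below follows each of them by its family.

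Fos (chr12:85473890-85477273, plus strand), the prototype partner of JUN proteins, rose at d6 over both schedules. Its level was 4.84, 2.86 and 3.96 CPM in PBS-1 d6 and 4.75, 10.4 and 7.92 CPM in 5FU-1 d6. After 3 administrations it was 5.84, 3.56 and 9.78 CPM with PBS and 9.63, 16.8 and 13.4 CPM with 5-FU. In each schedule 2 of the 3 5-FU libraries lay above all PBS libraries and the lowest 5-FU library fell within the PBS range. The log2 fold change was 1.02 (SE 0.26, adjusted p = 0.0101 by edgeR over 12 libraries), with an exact permutation p of 0.02 when labels were exchanged within schedules (400 arrangements, smallest possible p 0.005). Within a schedule the estimates were 1.00 (SE 0.34, adjusted p = 0.0711) and 1.05 (SE 0.37, adjusted p = 0.0972), neither of which passed, although DESeq2 put both past the threshold (adjusted p = 0.0385 and 0.0449). Leaving out 5FU-1 d6 replicate 1 (adjusted p = 0.0356) or PBS-3 d6 replicate 3 (adjusted p = 0.0396) also did.

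Fosb (chr7:19302696-19310051, minus strand), a FOS relative with a long-lived splice form known from the brain, went the other way after 1 administration and not after 3. PBS-1 d6 held 3.20, 1.28 and 3.06 CPM against 0.417, 0.331 and 0.910 CPM in 5FU-1 d6. PBS-3 d6 held 2.29, 3.24 and 2.35 CPM against 3.11, 5.45 and 1.94 CPM in 5FU-3 d6. The first pair of groups did not overlap and the second did. The log2 fold change was -2.16 (SE 0.61, adjusted p = 0.0440) after 1 administration, where 11.5% of 12759 genes were higher and 10.6% lower, and 3 of the 8 tested genes were called (Egr1 higher, Fosb and Junb lower). Fosb failed the filter where 5FU-1 d6 was paired with 5FU-1 d21, so it entered this test only through PBS-1, where it was high. Its fold change and call are therefore given as description and not as support. The call rested on 9 to 24 counts per 5FU-1 library and on each library but 1: the adjusted p was 0.126 without PBS-1 replicate 1, 0.117 without PBS-1 replicate 3, and 0.123, 0.127 and 0.0524 without 5FU-1 replicates 1, 2 and 3. After 3 administrations the log2 fold change was 0.41 (SE 0.44, adjusted p = 0.562), and without 5FU-3 replicate 2 it was -0.06. The difference between the schedules was 2.58 (SE 0.75) on the log2 scale with an adjusted p of 0.132 by edgeR. By DESeq2 the same difference had an adjusted p of 0.0203.

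In all, 0 of the 8 tested genes passed that test of a difference between schedules by edgeR, 1 had an unadjusted p under 0.05, and DESeq2 called 1, in each case Fosb. Over the 13227 genes, 0.340% were higher and 0.310% lower by edgeR, and 1954 had an unadjusted p under 0.05. The difference of Fosb between schedules therefore depended on the tool.

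Junb (chr8:84974484-84978718, minus strand) fell at d6 in both schedules. It was at 35.8, 36.7 and 43.4 CPM in PBS-1 d6 against 23.4, 21.1 and 30.8 CPM in 5FU-1 d6. With 3 administrations it was at 46.9, 47.7 and 50.1 CPM after PBS against 28.9, 39.3 and 27.8 CPM after 5-FU. In both schedules each 5-FU library lay below each PBS library. The log2 fold change was -0.61 (SE 0.11, adjusted p = 0.00115, exact permutation p = 0.005, the smallest possible) over both schedules, -0.61 (SE 0.15, adjusted p = 0.0303) after 1 and -0.60 (SE 0.14, adjusted p = 0.0273) after 3 administrations. Over both schedules the call stood without any single library. Within 1 administration it was lost without PBS-1 replicates 1, 2 or 3 (adjusted p = 0.0528, 0.0623 and 0.0843) or 5FU-1 replicates 1 or 2 (0.0927 and 0.0844). Within 3 administrations it was lost without PBS-3 replicates 1, 2 or 3 (0.0638, 0.0658 and 0.0791) or 5FU-3 replicates 1 or 3 (0.0820 and 0.0854).

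The other 2 JUN genes did not follow Junb. Jun (chr4:95049034-95052222, minus strand), the main FOS partner, was at 44.6 to 55.9 CPM in PBS-1 d6 and 43.0 to 48.6 CPM in 5FU-1 d6, and at 41.0 to 52.4 CPM in PBS-3 d6 and 43.9 to 63.0 CPM in 5FU-3 d6. Jund (chr8:70698949-70700616, plus strand) was at 66.4 to 76.7 and 67.6 to 77.1 CPM, and at 76.7 to 89.0 and 81.9 to 119.6 CPM in the same order. All 4 pairs of ranges overlapped. Over both schedules the log2 fold change was 0.01 (SE 0.11, adjusted p = 0.946) for Jun, with a sign that turned under library size scaling (-0.06), and 0.14 (SE 0.09, adjusted p = 0.260) for Jund.

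Egr1, a zinc finger factor of the EGR family, showed the clearest rise among the 10 genes. It was at 28.7, 21.4 and 17.6 CPM in PBS-1 d6 and at 35.8, 38.97 and 41.7 CPM in 5FU-1 d6. With 3 administrations it was at 15.4, 20.1 and 16.6 CPM after PBS and at 24.1, 34.2 and 35.3 CPM after 5-FU. Every 5-FU library exceeded every PBS library of its schedule. The log2 fold change was 0.81 (SE 0.13, adjusted p = 0.000544, exact permutation p = 0.005) over both schedules, 0.79 (SE 0.17, adjusted p = 0.0194) after 1 and 0.84 (SE 0.17, adjusted p = 0.0187) after 3 administrations. After 3 administrations Egr1 and Junb were the 2 called genes among 8 tested, against 9.84% of 12729 genes higher and 8.30% lower. The call over both schedules stood without any single library. Within 1 administration it was lost without PBS-1 replicate 2 (adjusted p = 0.0628) or 5FU-1 replicates 2 or 3 (0.0561 and 0.0579), and within 3 without PBS-3 replicates 1 or 3 (0.0583 and 0.0620) or 5FU-3 replicates 2 or 3 (0.0579 and 0.0641).

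Ier2, a small nuclear protein gene of the early response, stayed near 1 level. It ran from 34.1 to 38.9 CPM in PBS-1 d6, 36.1 to 41.2 CPM in 5FU-1 d6, 31.8 to 35.8 CPM in PBS-3 d6 and 32.1 to 41.1 CPM in 5FU-3 d6 (chr8:84661331-84662852, minus strand). The ranges overlapped in both schedules. The log2 fold change over both was 0.09 (SE 0.07, adjusted p = 0.325).

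**Figure D2:**
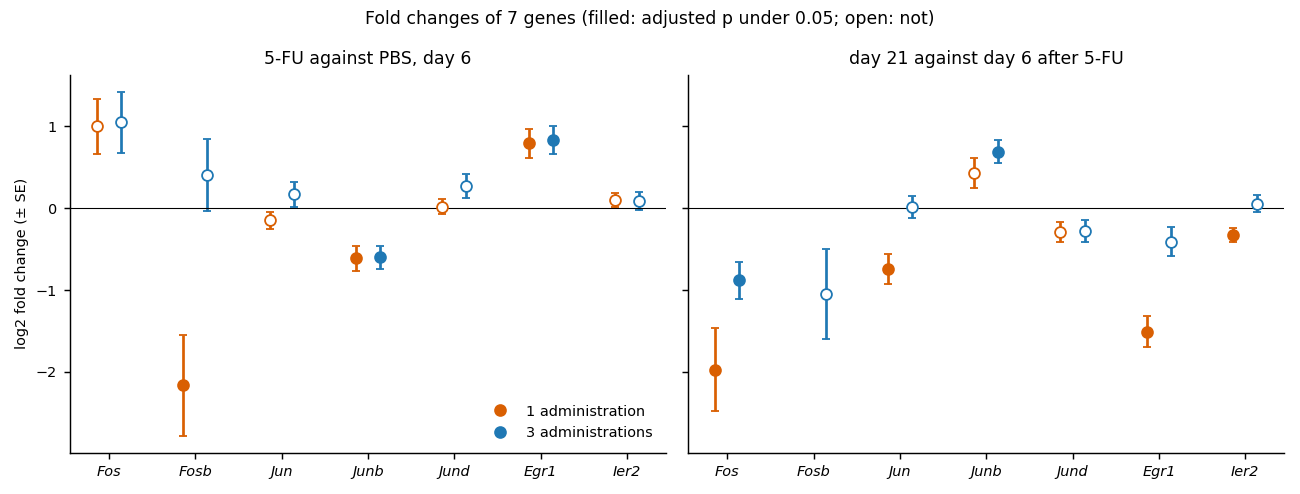
Log2 fold changes with their SE (vertical axis) for 7 genes (horizontal axis), in the left panel for 5-FU against PBS at d6 and in the right panel for d21 against d6 after 5-FU, for 1 and 3 administrations in separate colours, filled where the adjusted p of edgeR passed the threshold of 0.05. Egr1 (0.79 and 0.84) and Junb (-0.61 and -0.60) lay at like values in both schedules at d6, whereas Fosb lay at -2.16, in a test that it entered only through PBS-1, and at 0.41. Fosb after 1 administration is not drawn in the right panel because it was not tested there.

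Ratios of counts within a library do not depend on the scaling between libraries. They were examined after the levels had been seen, with exact permutation tests within schedules (48 tests of 4 ratios in 12 comparisons). The ratio of Jun to Junb was 1.40, 1.22 and 1.29 in PBS-1 d6, 1.85, 2.03 and 1.58 in 5FU-1 d6, 1.00, 0.861 and 1.05 in PBS-3 d6 and 1.52, 1.60 and 1.87 in 5FU-3 d6. Both 5-FU groups were above their PBS groups without overlap. The mean log2 difference was 0.63 (exact p = 0.005, adjusted p = 0.08 over the 48 tests). Junb relative to Jund differed by -0.76 (exact p = 0.005, adjusted p = 0.08), and Egr1 relative to Ier2 by 0.73 (exact p = 0.005, adjusted p = 0.08), each the smallest p that the 400 arrangements allow. No ratio passed the threshold after adjustment. Fos relative to Fosb differed by 1.97 (exact p = 0.02, adjusted p = 0.192), with ratios of 1.29 to 2.22 in PBS-1 d6 and 8.55 to 29.9 in 5FU-1 d6, but 1.10 to 4.14 in PBS-3 d6 and 3.08 to 6.86 in 5FU-3 d6, which overlapped.

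**Figure D3:**
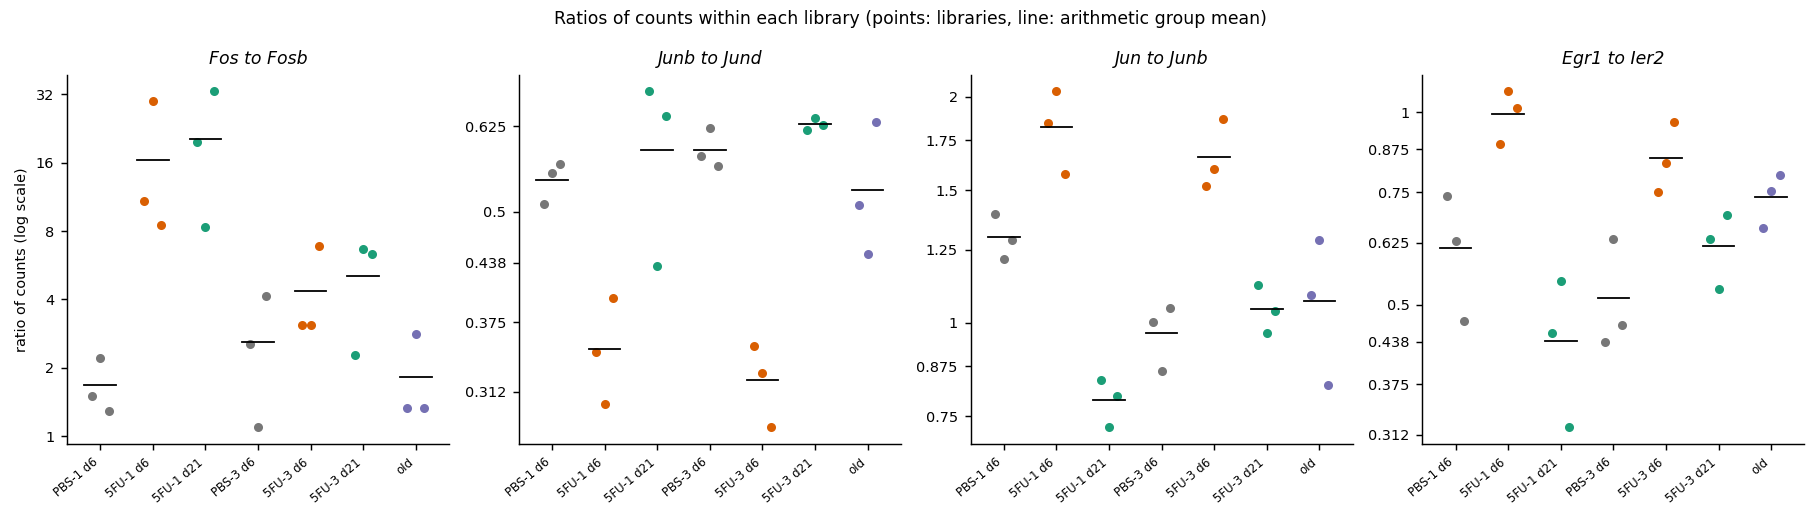
Ratios of the counts of 2 genes within each library (vertical axes, log scale) in the 7 groups (horizontal axis), with 1 point per library and a line at the arithmetic mean of the 3 libraries. Junb to Jund and Jun to Junb set the 2 groups of d6 after 5-FU apart from the PBS groups of the same schedule. Fos to Fosb was at 8.33 or above in the 6 libraries given 5-FU once, but at d21 Fosb had 4 or fewer counts in each of them, near or under the floor.

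At d21 after a single administration, Fos, Jun, Egr1 and Ier2 had fallen below their d6 levels. This comparison asks how the genes stood at the later time. Fos was at 3.45, 1.07 and 1.46 CPM, Jun at 34.9, 20.8 and 25.9 CPM, and Egr1 at 14.9, 16.6 and 9.90 CPM, and each was below all d6 libraries of 5FU-1. The log2 fold changes from d6 to d21 were -1.97 (SE 0.51, adjusted p = 0.0289) for Fos, -0.74 (SE 0.18, adjusted p = 0.0251) for Jun and -1.51 (SE 0.19, adjusted p = 0.00248) for Egr1. Ier2, at 33.2, 30.5 and 30.8 CPM, also lay below all d6 libraries, with a log2 fold change of -0.33 (SE 0.089, adjusted p = 0.0343). These were 4 of 6 tested genes lower and 0 higher, against 13.7% of 12589 genes lower and 12.3% higher. Fosb was left out of this test by the filter, with 4, 4 and 1 counts in the d21 libraries (0.157, 0.115 and 0.0298 CPM), of which the last is under the floor. Other lists moved in the comparisons of d21 with d6. After 1 administration, 6 of 12 tested neutrophil and monocyte markers were higher and 0 lower (median 2.25), 1 of 12 heat shock genes was higher and 5 lower (median -0.25), and 4 of 12 HSC markers were higher and 2 lower. After 3, 4 of 12 neutrophil and monocyte markers were higher and 0 lower (median 0.98), 0 of 12 heat shock genes were higher and 3 lower (median -0.04), and 6 of 12 HSC markers were higher and 0 lower. Their part in the changes of the members was not tested.

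The fall of Egr1 stood under every setting tried, including without any single library, and the others did not. Fos was not called without 5FU-1 d6 replicates 2 or 3 (adjusted p = 0.101 and 0.0784) or d21 replicates 2 or 3 (0.0625 and 0.0756). Jun was not called without d6 replicates 1, 2 or 3 (0.0624, 0.0665 and 0.0800) or d21 replicate 3 (0.0703). Ier2 was not called without d6 replicates 1, 2 or 3 (0.1005, 0.0580 and 0.112) or d21 replicates 2 or 3 (0.0947 and 0.0979).

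After 3 administrations, Junb was higher and Fos lower at d21 than at d6. Junb was at 48.9, 53.6 and 53.2 CPM at d21, above all d6 libraries, and its log2 fold change was 0.69 (SE 0.14, adjusted p = 0.0160). Fos was at 6.24, 8.43 and 7.12 CPM, below all d6 libraries, with -0.88 (SE 0.22, adjusted p = 0.0339). These were 1 of 7 tested genes higher and 1 lower, against 8.68% of 12553 genes higher and 10.8% lower. Egr1, at 23.4, 20.1 and 27.5 CPM, overlapped its d6 values and had -0.41 (SE 0.17, adjusted p = 0.148). Junb lost its call without 5FU-3 d6 replicates 1 or 3 (adjusted p = 0.0528 and 0.0593), and Fos without d6 replicates 2 or 3 (0.0973 and 0.0948) or d21 replicates 1 or 3 (0.0951 and 0.0885). After 1 administration Junb had 0.43 (SE 0.19, adjusted p = 0.127). Whether the changes differ between the schedules was not tested.

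Against PBS, the groups at d21 had none of the 10 genes past the threshold by edgeR. After 1 administration, 0 of 7 tested genes were called, against 0.0712% of 12647 genes higher and 0.150% lower. Of the 7, 4 had an unadjusted p under 0.05, against 1685 of the 12647, and DESeq2 called 2 (Fosb and Jun). Fosb had 34 to 86 counts in PBS-1 and 4, 4 and 1 counts at d21. It passed the filter only through PBS-1, where it was high, so no fold change is given. Jun differed by -0.89 (SE 0.19, adjusted p = 0.114) and Egr1 by -0.72 (SE 0.24, adjusted p = 0.262). In 4 of the 6 tested genes other than Fosb (Jun, Jund, Egr1 and Ier2) every d21 library lay below every PBS-1 library, which held for 10.8% of all genes tested.

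After 3 administrations, 0 of 7 genes were called by edgeR and by DESeq2, against 0.0396% of 12632 genes higher and 0.00792% lower by edgeR. Of the 7, 1, Egr1, had an unadjusted p under 0.05 (log2 difference 0.44, SE 0.15, adjusted p = 0.287), against 1725 of the 12632. Every d21 library lay above every PBS-3 library in 2 of the 7 genes, Egr1 and Ier2, as in 11.0% of all genes tested. Over both schedules 0 of 8 genes were called by edgeR, against 1.23% of 13182 genes higher and 1.87% lower. Fosb, the only 1 of the 8 with an unadjusted p under 0.05 (2254 of the 13182 had it), was also the only 1 that DESeq2 called. The pooled value of Fosb averages in the pair after 1 administration, with 4, 4 and 1 counts in its d21 libraries. There Fosb passed the filter only through PBS-1, so no pooled fold change is given and the DESeq2 call is description only. After 3 administrations alone the log2 difference of Fosb was -0.64 (SE 0.49, adjusted p = 0.629 by edgeR). The control in all 3 of these comparisons was taken at d6, so time since injection and treatment cannot be told apart.

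At d21, the libraries given 5-FU 3 times lay above those given it once for Fos, Jun, Junb, Jund, Egr1 and Ier2, without overlap. This contrast was added after the levels had been seen. Fosb was at 0.157, 0.115 and 0.0298 CPM after 1 administration and at 2.73, 1.25 and 1.11 CPM after 3. Jun was at 34.9, 20.8 and 25.9 against 54.9, 51.9 and 55.0 CPM, and Fos at 3.45, 1.07 and 1.46 against 6.24, 8.43 and 7.12 CPM. Fosb passed the filter here only through the group where it was high. The other 6 tested genes separated in this way, as did 6.30% of the 12474 genes tested. By edgeR 0 of the 7 were called, against 0.00802% of genes higher and 0% lower. All 7, Fosb among them, had an unadjusted p under 0.05, as did 738 of the 12474 genes tested. DESeq2 called 5 (Fos, Fosb, Jun, Junb and Jund), and its share over all genes is not given here. The log2 differences were 1.87 for Fos (SE 0.46, adjusted p = 0.486), 0.99 for Jun (SE 0.18, adjusted p = 0.264) and 0.60 for Junb (SE 0.15, adjusted p = 0.481). The interaction of 5-FU at d21 with the number of administrations, with each schedule set against its own PBS group, also called 0 of 8 genes by edgeR (0% of 13182 genes higher and 0% lower). An unadjusted p under 0.05 was held by 5 of the 8, against 1273 of all 13182, and DESeq2 called 2, Fosb and Jun.

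Neither repeated PBS alone nor the old group gave a call. No injection is listed for the old group, so age and injection cannot be told apart in its comparisons with PBS. PBS-3 against PBS-1 at d6 called 0 of 7 genes by edgeR and by DESeq2, against 0.00781% of 12806 genes higher and 0.00781% lower by edgeR. Of the 7, 2 (Junb and Jund) had an unadjusted p under 0.05, against 1633 of the 12806. Old HSCs against PBS-3 called 0 of 8 by both tools, against 0.553% of 12847 genes higher and 0.444% lower by edgeR. Only Egr1 of the 8 had an unadjusted p under 0.05, against 1434 of the 12847. Egr1 was at 22.4, 24.4 and 25.1 CPM in old HSCs, above all PBS-3 libraries, with a log2 difference of 0.46 (SE 0.13, adjusted p = 0.193), and within the range of PBS-1. Old HSCs against PBS-1 called 0 of 8 by both tools, against 1.44% of 12855 genes higher and 0.443% lower by edgeR. None of the 8 had an unadjusted p under 0.05, against 1839 of the 12855. The old libraries spread widely for Fos (4.66, 3.16 and 1.16 CPM), Fosb (3.51, 1.11 and 0.872 CPM) and Jun (50.9, 47.4 and 31.5 CPM), and the first of them was the highest in all 3.

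Egr2, Egr3 and Atf3 were detected in scattered libraries, and in no group did every library exceed the floor. Egr2 (chr10:67535475-67542188, plus strand), known for its role in myelin and in T cells, varied from library to library within groups. In PBS-1 d6 it had 1, 150 and 0 counts, in 5FU-1 d6 0, 38 and 50, in PBS-3 d6 0, 0 and 91, in 5FU-3 d6 0, 52 and 76, and in old HSCs 0, 83 and 47. Each of these groups held libraries near 0 and libraries with 38 or more counts. Its spread within groups was in the 97.8th percentile of genes of similar level. At d21 it had 3, 0 and 0 counts after 1 administration and 0, 0 and 1 after 3, all at or under the floor.

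Egr3 (chr14:70077203-70082614, plus strand), a close relative of Egr2, was detected above the floor in 1 PBS-3 library (86 counts), 2 of 5FU-1 d21 (20 and 36 counts), 1 of 5FU-3 d6 (6 counts) and 2 old libraries (14 and 12 counts), and had 0 or 1 count elsewhere. Atf3 (chr1:191170296-191218039, minus strand), a stress-induced AP-1 family repressor, had 7 counts in 1 library of 5FU-1 d6, 5 in 1 of 5FU-1 d21, 11 in 1 old library, and 0 or 1 count in the other 18. No fold change is given for these 3 genes, since in most groups libraries stood at or under the floor.

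Within groups, Fos, Jun, Junb, Jund and Ier2 had higher correlations with each other from library to library than Egr1 had with them. On deviations from the group mean of log2(CPM + 1) over 21 libraries, Pearson's r was 0.83 for Fos and Jun, 0.71 for Jun and Junb and 0.71 for Jun and Ier2. The lowest value among those 5 genes was 0.48 (Fos and Junb). Fosb had values from 0.33 (Fos) to 0.55 (Junb) with them. Egr1 had 0.06 with Fos and -0.01 with Jun, and 0.29 with both Jund and Ier2. These values are descriptions over libraries that share sorting and depth, with 3 libraries per group. Genes whose levels over the 21 libraries were most like those of Fos among 9263 genes were Cnot10 (r = 0.83), Cox18, Nubp1, Eif3j2 and Eif3j1. The list was Atad1 (0.78), D17H6S56E-5, Dusp1, Cry1 and Ptgs1 for Jun, and Snrnp40 (0.87), Aarsd1, Klhdc4, Galk1 and Hk2 for Egr1. On deviations within groups, Fos was nearest to Zfp644 (0.84), Rhbdd3, Eif3j2, Sertad1 and Cnot10, and Jun to Gem (0.83), 2410002F23Rik, Zfp839, Zfp36 and Fnbp4. Egr1 was nearest to Foxp3 (0.89), Ccdc22, Thap4, Pxk and Foxo1, of which Foxp3 and Ccdc22 share 590 exonic bases and are uncertain as separate signals.

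**Figure D4:**
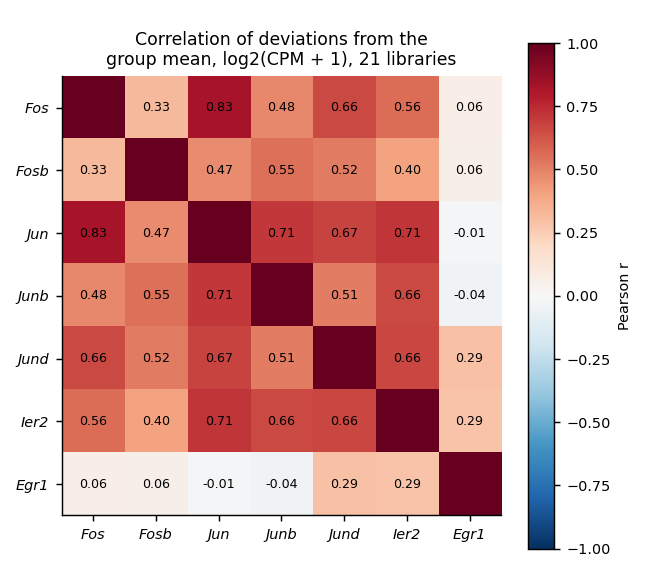
Pearson's r between 7 genes (both axes) for the deviations of log2(CPM + 1) from the group mean in the 21 libraries, with red for positive and blue for negative values. Fos, Jun, Junb, Jund and Ier2 had values between 0.48 and 0.83 with each other, whereas Egr1 had values between -0.04 and 0.29 with the other 6 genes.

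Other immediate early genes also went in both directions at d6 over both schedules, where 5 of 28 tested were higher and 9 lower (median log2 fold change -0.09, against -0.01 over all genes, of which 17.8% were higher and 16.7% lower). Nr4a1, an orphan nuclear receptor gene of the early response, rose by 1.64 on the log2 scale (SE 0.26, adjusted p = 0.000500), with 4.48 to 5.73 CPM in PBS-1 d6 and 11.6 to 20.8 CPM in 5FU-1 d6, and 3.90 to 5.43 and 6.61 to 20.6 CPM after 3 administrations. Plk3, a stress-responsive polo-like kinase gene, rose by 1.30 (SE 0.24, adjusted p = 0.00145). Gadd45a, a growth arrest gene, fell by 0.94 on the log2 scale (SE 0.15, adjusted p = 0.000565), with no overlap between 5-FU and PBS in either schedule. In the interaction of the schedules only Cebpb of this list was called (-0.98, SE 0.17, adjusted p = 0.0310). At d21 against d6, 5 of 27 were higher and 4 lower after 1 administration (12.3% and 13.7% of all genes) and 6 of 28 higher and 2 lower after 3 (8.68% and 10.8%). Nr4a1 fell in both (-1.58 and -1.84) and Gadd45a rose in both (1.37 and 1.02).

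**Figure D5:**
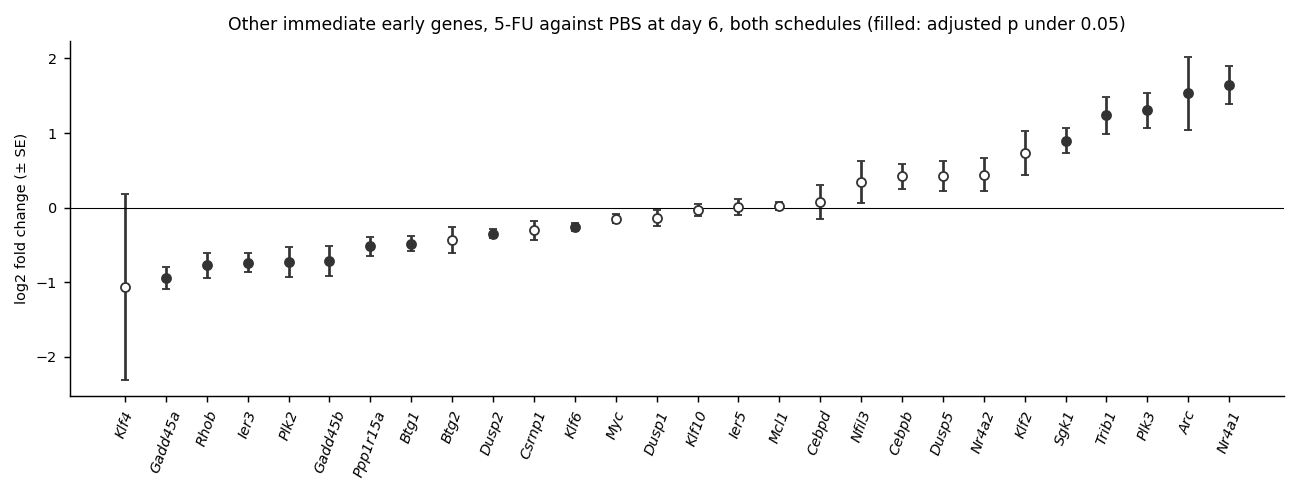
Log2 fold changes with SE (vertical axis) of 28 other immediate early genes (horizontal axis, in order of value) for 5-FU against PBS at d6 over both schedules, filled where the adjusted p passed 0.05. Nr4a1 was highest at 1.64, and the 9 genes called lower lay between -0.94 (Gadd45a) and -0.26 (Klf6).

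Of 12 tested other AP-1 subunit genes, 2 were higher (Fosl1 and Fosl2) and 1 lower (Mafk, -0.41, adjusted p = 0.00471) in the same comparison, with a median of 0.06. The shares of all genes, 17.8% higher and 16.7% lower, apply to each list here, and with so few genes a list nothing particular to one is read from its count. Of the EGR corepressor genes, Nab2, which encodes a protein that binds EGR factors and curbs their activity, was higher by 0.37 (adjusted p = 0.00853), 1 of 2 tested. Among 18 upstream kinase and factor genes 4 were higher and 0 lower (median 0.03), with Elk1, a ternary complex factor, at 0.38, Rps6ka3 at 0.29 and Map2k2 at 0.17. Of 9 genes of AU-rich RNA decay 4 were higher and 2 lower (median 0.18), among them Hnrnpd (0.65) and Exosc9 (0.46) higher and Zfp36l1 (-0.42) lower. In old HSCs against PBS-3 and PBS-1, Plk2 (1.22 and 1.44) and Batf2 (0.71 and 0.72) were higher.

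Markers of other states moved with the d6 comparison. Heat shock genes, which include responders to handling, had 6 of 12 tested higher and 0 lower (median 0.32), against 17.8% and 16.7% of all genes, with Hspd1 at 0.59, Hsph1 at 0.45 and Dnaja1 at 0.44. Their summed level was 3768 to 4296 CPM in 5FU-1 d6 and 3797 to 4077 CPM in 5FU-3 d6, against 2963 to 3322 and 2669 to 3055 CPM in the PBS groups. Neutrophil and monocyte markers summed to 66.2 to 80.8 and 57.5 to 82.4 CPM after 5-FU against 112 to 164 and 104 to 137 CPM, with 8 of 13 tested lower and 0 higher. Megakaryocyte markers summed to 110.4 to 120.5 and 159 to 177 CPM against 195 to 237 and 221 to 229 CPM, with 5 of 7 lower and 1 higher. Of the HSC markers 3 of 12 were higher and 5 lower, Kit among the latter. Of the erythroid markers 1 of 7 was higher and 2 lower, and of the T and NK cell markers 0 of 2 higher and 1 lower. B cell markers summed to 35.1 to 44.2 and 35.5 to 36.2 CPM after 5-FU against 38.1 to 45.3 and 42.8 to 52.6 CPM. The part of these shifts in the levels of Fos, Egr1 and Junb was not tested.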

How the data were processed

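The authors deposited a table of whole-number read counts per gene for 21000 genes in 21 libraries, made from 22184885 to 38649033 counted reads each. Libraries were prepared with SMART-Seq v4 and Nextera XT, which do not mark strand. Per the submitters' processing notes, TopHat 2.0.13 and Cufflinks 2.2.1 were used with mm10, and the counting program is not given in the sources used here.

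Differences in counts were assessed by edgeR 4.0.16 with glmQLFit and glmQLFTest (limma 3.58.1, R 4.3.3) after its expression filter and TMM scaling, with Benjamini-Hochberg adjustment over all genes tested and a threshold of 0.05. Each pair of groups was fitted on its own libraries, and comparisons over both schedules on those of both. DESeq2 1.42.0, library size scaling, other filters, a replicate block, 1 fit over 21 libraries and leaving out each library were alternatives. CPM were scaled over 21 libraries. Exact two-sided permutation tests used log2(CPM + 1), with 20 arrangements of 3 against 3 libraries (smallest p 0.1) or 400 within schedules. Ratios used counts plus 0.5. Loci are from GENCODE on GRCm38. The steps were tested on simulated data. No library was a copy of another: variance between libraries of a group was 17.3 to 38.3 times that of sampling.

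Replicate numbers did not pair the libraries. All 10 members were named. Of each other list, at most 3 genes past the threshold with the largest changes and a mean of at least 5 CPM were named per comparison, and Fosl1 and Fosl2 were named beside their count after their values were seen. For likeness, the 5 nearest genes with a mean of at least 10 CPM were named. The members and lists were chosen with earlier results of these data known. The contrasts between 3 and 1 administrations at day 21, the ratios and the motifs TTCNNNGAA, CCAAT and TGACG were added after seeing the data. Comparison of protein sequences was not done.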

Additional observations from a re-analysis of the deposited data

Results flagged for a closer look

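By library levels, Egr1 and Ier2 at day 21 lay on opposite sides of PBS in the 2 schedules, without a call. After 1 administration of 5-FU, Egr1 was below PBS in every library (14.9, 16.6 and 9.90 CPM against 28.7, 21.4 and 17.6 CPM), and after 3 it was above PBS in every library (23.4, 20.1 and 27.5 CPM against 15.4, 20.1 and 16.6 CPM, where the nearest libraries were both at 20.1 CPM). The difference between the schedules was 1.15 on the log2 scale (SE 0.31, adjusted p = 0.309 by edgeR). Ier2 was at 33.2, 30.5 and 30.8 CPM against 38.9, 34.1 and 37.3 CPM after 1 administration, and at 37.0, 38.1 and 39.8 CPM against 35.3, 31.8 and 35.8 CPM after 3. Its difference between the schedules was 0.38 (SE 0.12, adjusted p = 0.377 by edgeR). Neither passed the threshold. Of all genes tested, 10.8% lay below PBS without overlap after 1 administration and 11.0% above it after 3. The share that did both was not computed. PBS-1 d6 carries the column suffix that 5FU-1 d21 lacks, and PBS was taken at d6 in both schedules. Neither can be told apart from treatment here. Groups of 3 libraries were not examined for single outlying libraries.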

How the results depend on the processing

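Over both schedules at day 6, the 3 calls (Fos, Junb and Egr1) stood under every alternative tried, with 3 to 3 genes called when 1 library was left out. DESeq2 called 1 gene in the day 6 interaction, 2 at day 21 against PBS after 1 administration, 1 there over both schedules, 5 between the schedules at day 21 and 2 in the day 21 interaction, where edgeR called 0. DESeq2 also called more of all genes: at day 6 after 1 administration it called 3685 of 12759, against 2827 by edgeR. Its counts of members are therefore not to be set against the edgeR shares. With all 21 libraries in 1 fit the counts were 2 at day 21 against PBS after 1 administration, 1 there over both schedules, 2 between the schedules at day 21, and 1 for day 21 against day 6 after 3 administrations (2 in the pairwise fit), which was also 1 with library size scaling. The replicate block gave 2 calls (Jun and Egr1) in place of 4 for day 21 against day 6 after 1 administration, with adjusted p = 0.0787 for Fos and 0.0515 for Ier2, and adjusted p = 0.0562 for Fosb at day 6 after 1 administration. Replicate numbers did not pair the libraries: correlations of same-numbered libraries ran from -0.0789 to 0.162 over 9268 genes, 0 of 10 comparisons had all 3 above 0.1, and in 1 of 10 every library correlated best with its own number. Leaving out 1 library, the genes called ranged from 0 to 2 (1 administration) and 0 to 1 (3 administrations) at day 6, from 1 to 5 and from 0 to 2 for day 21 against day 6, and from 6 to 7 over the 7 groups. The sign of Jun at day 6 over both schedules turned with library size scaling (-0.0591), with at least 10 counts in every library (-0.000143) and when 1 library was left out (-0.0699 to 0.0648), and that of Fosb after 3 administrations turned without 5FU-3 d6 replicate 2 (-0.0581, with 0.699 the highest when 1 library was left out). Fosb at 5FU-1 d6 lost its call with all genes of at least 1 count (adjusted p = 0.0519). The cause of these changes was not tested. Depth limits Egr2, Egr3, Atf3 and, at day 21 after 1 administration, Fosb, which had 4 or fewer counts there.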
